A study of Mus musculus with 6 samples.

Results

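The Ugt2b genes of the mouse encode UDP-glucuronosyltransferases of subfamily 2B. The 7 members described here are Ugt2b1, Ugt2b5, Ugt2b34, Ugt2b35, Ugt2b36, Ugt2b37 and Ugt2b38, taken as the rows of the liver count files whose symbol is one of these names. No other row of the 23282 in each file has a symbol that starts with Ugt2b, and all 7 were among the 12505 rows tested. The family was picked for description with its counts in both groups already known, so its differences between groups are given as a description and support nothing by themselves.

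These enzymes sit in the membrane of the endoplasmic reticulum and transfer glucuronic acid from UDP-glucuronic acid onto small molecules, which makes them soluble enough to leave in bile and urine. In the liver, members of subfamily 2B act on steroid hormones, bile acids, fatty acids and many drugs. Each Ugt2b gene has its own complete set of exons, whereas the Ugt1a enzymes come from a single locus in which alternative first exons join a shared set of last exons.

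The atractylodin group held 3 liver libraries from male C57BL/6N mice that ate a high-fat diet for 12 weeks from 8 weeks of age and were given atractylodin, a compound of Atractylodes plants, by mouth at 10 mg/kg on 5 days per week during the last 4 weeks. The vehicle group held 3 libraries of mice on the same diet that received vehicle over the same weeks. No group ate a control diet, so all values compare treated with untreated livers on the high-fat diet. The libraries are numbered in the labels, but nothing there ties 1 library to 1 mouse, so every p-value here rests on library-to-library spread, which may be technical.

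Libraries were made with QuantSeq, which reads 1 fragment near the 3' end of each transcript, so levels can be set side by side between genes without scaling by length. Total counts were 9871762 to 12565393 in the atractylodin libraries and 1831461 to 12111553 in the vehicle libraries. Vehicle 1 was the shallowest library, and its position on the first principal component (-39.47) lay apart from the other 2 vehicle libraries (-1.26 and -0.49) and from the atractylodin libraries (12.59 to 15.18). In CPM, counts per 1000000 on library sizes scaled by TMM, a count of 3 equalled 1.61 in vehicle 1 and 0.243 to 0.313 in the others. Albumin, the main plasma protein made by hepatocytes, took 4.55% to 5.67% of counts.

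The 7 genes lie in 1 cluster on chromosome 5 of GRCm38, from 86889767 to 87424203, a stretch of 534.4 kb. Ugt2b35 is on the plus strand and the other 6 are on the minus strand. None of the 7 overlaps another annotated gene on either strand in GENCODE M21. Ugt2a3, a glucuronosyltransferase of subfamily 2A, lies between Ugt2b37 and Ugt2b38.

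The members differ in how closely they are related. Ugt2b5, Ugt2b37 and Ugt2b38 shared 94.1% to 97.0% of the aligned columns of their coding sequences, and Ugt2b36 shared 87.0% to 88.4% with these 3. Ugt2b35 shared 85.9% to 88.3% with those 4 genes, while Ugt2b34 and Ugt2b1 shared 71.1% to 74.6% with all other members. Over the last 300 bases of the transcripts, where QuantSeq reads gather, identity was 84.2% to 87.8% among Ugt2b5, Ugt2b37 and Ugt2b38. It was 73.5% to 76.8% between Ugt2b36 and these 3, and 49.5% to 55.4% for every pair with Ugt2b34, Ugt2b1 or Ugt2b35, close to the 49.0% to 55.0% of Ugt2a3 with the members.

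For none of the 7 members did any 50-base run within those 300 bases occur in a transcript of another gene. Within the last 500 bases, 14 of 451 such runs were shared between Ugt2b5 and Ugt2b37, and none by the other members. How the authors assigned reads that match several genes is not given in the sources used here.

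**Figure D1:**
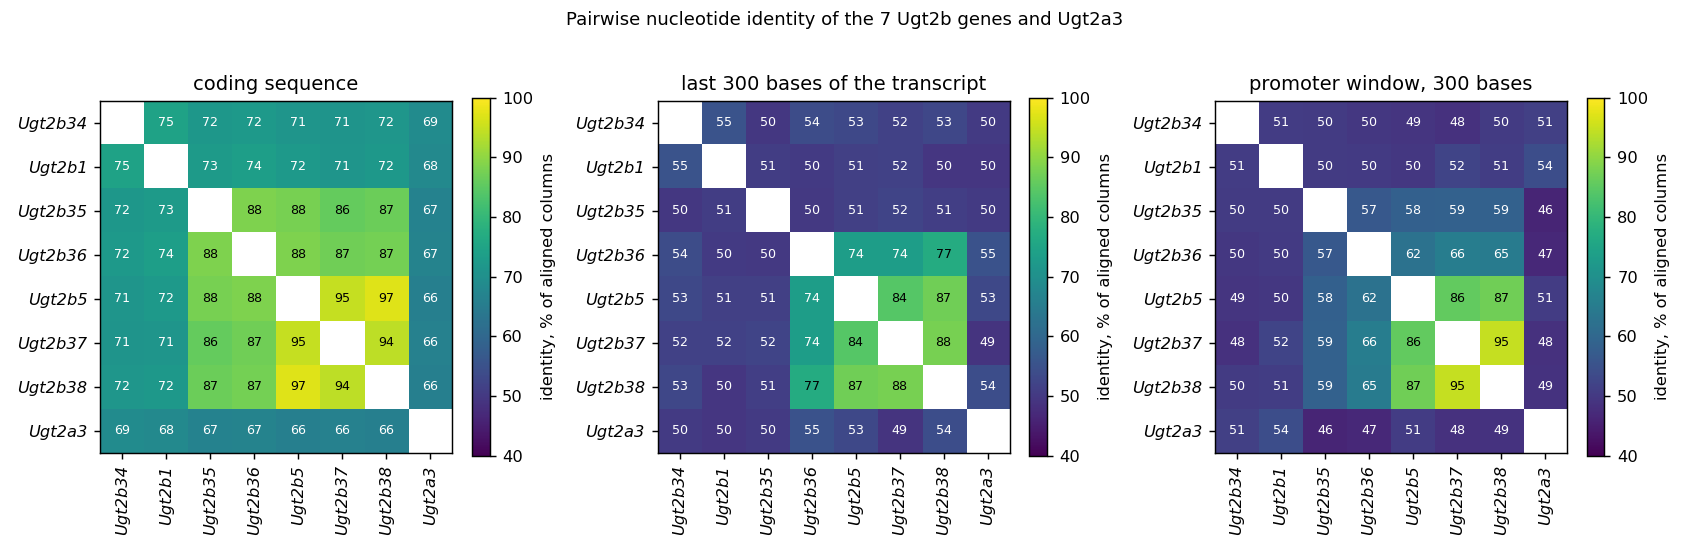
Nucleotide identity, in percent of aligned columns, between each pair of the 7 Ugt2b genes and Ugt2a3 for the coding sequence, the last 300 bases of the transcript and the promoter window of 300 bases. Ugt2b5, Ugt2b37 and Ugt2b38 form a close group in all 3 panels (94.1% to 97.0%, 84.2% to 87.8% and 85.7% to 94.8%).

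The promoter windows, from RefSeq on GRCm38.p6, run from 250 bases before each gene's start to 50 bases after it. Shown are Ugt2b35, whose fold difference was the largest among members above 10 CPM, Ugt2b5, the most abundant member with atractylodin, Ugt2b38, its close relative of low level, and Ugt2a3, the gene of the cluster that was not higher with atractylodin. Each is given 5' to 3' on the gene's own strand, and capitals mark AGGTCA, a half-site bound by nuclear receptors, and GTTAAT, a half-site of the HNF1 factors.
Ugt2b35, chr5:87000610-87000909, plus strand: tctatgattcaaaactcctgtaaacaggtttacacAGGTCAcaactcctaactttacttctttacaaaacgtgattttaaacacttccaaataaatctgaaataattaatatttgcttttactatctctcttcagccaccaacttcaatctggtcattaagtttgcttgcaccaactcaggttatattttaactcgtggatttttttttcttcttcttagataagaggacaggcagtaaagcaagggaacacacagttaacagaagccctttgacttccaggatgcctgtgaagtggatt
Ugt2b5, chr5:87140291-87140590, minus strand: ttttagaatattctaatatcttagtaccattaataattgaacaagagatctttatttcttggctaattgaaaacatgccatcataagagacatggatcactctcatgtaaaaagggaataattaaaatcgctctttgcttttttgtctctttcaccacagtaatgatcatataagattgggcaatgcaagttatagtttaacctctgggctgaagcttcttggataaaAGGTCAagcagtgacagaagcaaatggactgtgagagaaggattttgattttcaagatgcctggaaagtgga
Ugt2b38, chr5:87424154-87424453, minus strand: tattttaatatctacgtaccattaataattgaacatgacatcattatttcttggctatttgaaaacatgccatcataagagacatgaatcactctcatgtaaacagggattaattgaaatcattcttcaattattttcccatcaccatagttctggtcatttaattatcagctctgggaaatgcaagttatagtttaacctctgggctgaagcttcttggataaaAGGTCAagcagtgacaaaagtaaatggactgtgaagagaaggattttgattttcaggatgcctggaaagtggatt
Ugt2a3, chr5:87337146-87337445, minus strand: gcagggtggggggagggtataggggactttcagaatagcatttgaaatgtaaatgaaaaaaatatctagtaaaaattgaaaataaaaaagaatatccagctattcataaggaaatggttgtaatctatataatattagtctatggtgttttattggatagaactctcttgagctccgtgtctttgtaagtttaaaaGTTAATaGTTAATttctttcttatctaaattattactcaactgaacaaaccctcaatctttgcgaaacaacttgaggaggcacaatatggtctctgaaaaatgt

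AGGTCA or its reverse TGACCT was present in the windows of 5 of 7 members (Ugt2b5, Ugt2b35, Ugt2b36, Ugt2b37 and Ugt2b38), against 16.3% of the 32851 promoter windows of the table. In Ugt2b5 its first letter lay 22 bases before the start, and in Ugt2b36, Ugt2b37 and Ugt2b38 it lay 25, 39 and 25 bases before it. In Ugt2b35 it lay 215 bases before the start. Since the windows of Ugt2b5, Ugt2b37 and Ugt2b38 are 85.7% to 94.8% identical, these matches are not independent of each other. In Ugt2b36 the nearest bases on both sides of the match are the same as in those windows. Its match is therefore not independent of theirs either. The windows of Ugt2b34 and Ugt2b1, both called higher with atractylodin, held no match. Any link between the motif and the levels was not tested.

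GTTAAT or ATTAAC was found in none of the 7 windows and in 7.1% of all windows, and Ugt2a3 held it at 2 positions, 54 and 47 bases before its start. Only these exact letters were counted, so an HNF1 site with other letters would be missed. The near variant GTTAAC, for example, occurs in the windows of Ugt2b1, Ugt2b34 and Ugt2b35. The lack of a match therefore does not show that the Ugt2b windows lack an HNF1 site. The C/EBP motif TTGCNNAA, or TTNNGCAA, was in 3 of 7 (Ugt2b1, Ugt2b5 and Ugt2b36) and in 10.8% of all windows, and TATAAA or TTTATA was in none of the 7 and in 13.6%. Both strands were searched for each motif, and a match is a description of letters in the window.

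Each of the 7 Ugt2b members was at a higher level in all 3 atractylodin libraries than in any vehicle library. The family sum, the CPM of the 7 rows added up, was 2022, 2510 and 2406 in atractylodin libraries 1, 2 and 3, against 1267, 1498 and 1390 in vehicle libraries 1, 2 and 3. The groups did not overlap, and the lowest atractylodin library stood 1.35-fold above the highest vehicle library. The means were 2313 ± 257 CPM with atractylodin and 1385 ± 115 CPM with vehicle (SD, n = 3 each), a ratio of 1.67 (log2 0.74). The family took 0.129% to 0.244% of all counts in the libraries.

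In the fit across all rows (edgeR's quasi-likelihood test), 6 of 7 members were called higher at an adjusted p of 0.05 and none lower, with Ugt2b37 the exception. Of the 12505 rows tested, 3.92% were called higher, 3.33% lower and 7.25% in either direction (490 higher and 416 lower, or 312 higher and 707 lower under scaling by total counts). Groups did not overlap for 7 of 7 members, and 26.2% of all tested rows had groups that did not overlap, 13.5% with every atractylodin library above every vehicle library and 12.6% with every one below. The median log2 fold change was 0.71 over the 7 members and -0.0015 over all tested rows. The family was chosen on this contrast, so these counts are not read further. Without vehicle 1 the count was 5 of 7, beside 3.83% of rows called in either direction.

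**Figure D2:**
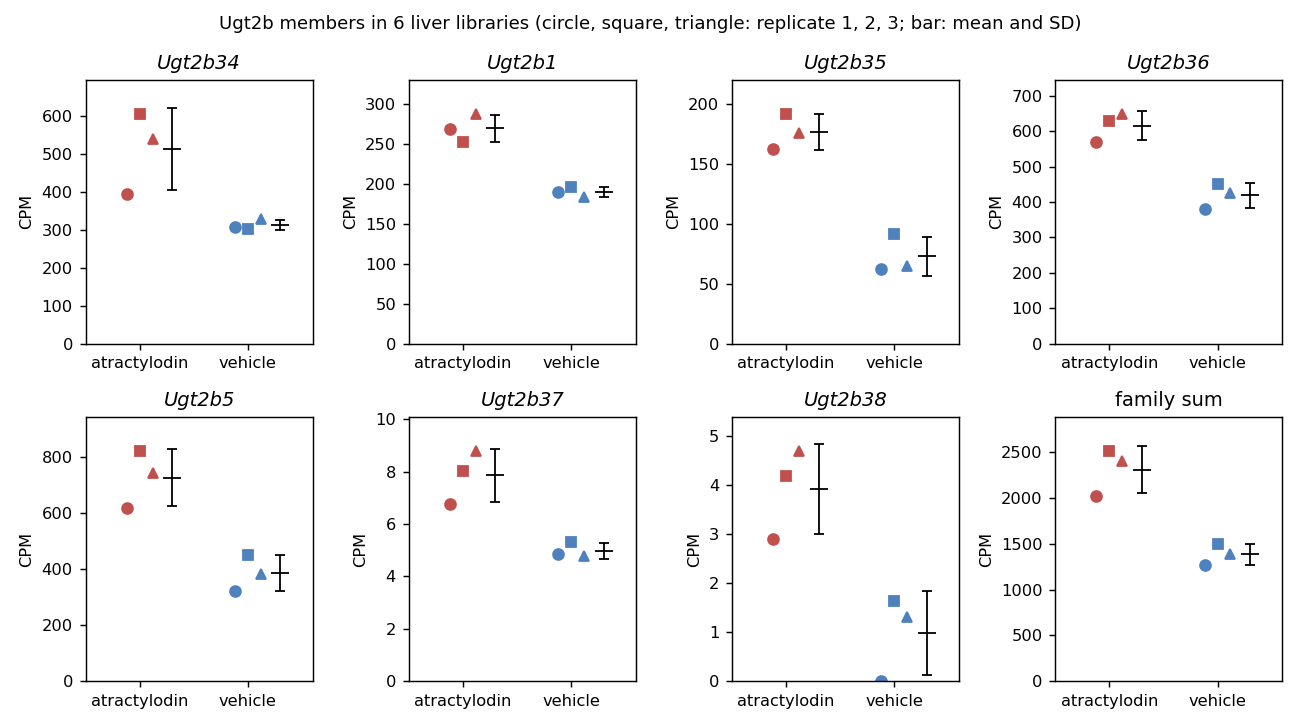
CPM of each Ugt2b member and of the family sum in 3 atractylodin libraries (red, left) and 3 vehicle libraries (blue, right), on axes that start at 0 and differ between panels. Circles, squares and triangles are replicates 1, 2 and 3, and black bars are means with SD. In every panel the red points lie above the blue ones, from 2022 to 2510 against 1267 to 1498 CPM for the sum.

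Of the members, 3 carried most of the family's RNA. Ugt2b5, of the close group, lies at 87124960 to 87140318. It stood at 616, 818 and 741 CPM in atractylodin libraries 1, 2 and 3, against 320.3, 449 and 381 CPM in vehicle libraries 1, 2 and 3. The groups were apart, with atractylodin 1 and vehicle 2 nearest to each other. The fitted fold change was 1.88 (log2 0.91 ± 0.13, SE).

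Ugt2b36 (87065927 to 87092555) stood at 569, 629 and 648 CPM in the atractylodin libraries, against 381, 450.2 and 425.5 CPM in the vehicle libraries. All treated libraries were again higher, by a smaller factor than for Ugt2b5 (1.47-fold, log2 0.55 ± 0.10, SE). Ugt2b34 (86889767 to 86906937) stood at 396, 606 and 540.2 CPM with atractylodin and at 308, 303 and 329 CPM with vehicle. Its vehicle libraries were close together, with a coefficient of variation of 4.38%, while the treated ones spread by 20.9%, with atractylodin 1 low. Its fold change was 1.64 (log2 0.71 ± 0.13, SE).

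A middle tier held Ugt2b1 and Ugt2b35. Ugt2b1 (86916638 to 86926530), whose rat counterpart is known to conjugate morphine, stood at 269, 253 and 288 CPM with atractylodin, against 190.6, 197 and 183 CPM with vehicle. It was the steadiest member, with coefficients of variation of 6.41% in the atractylodin group and 3.53% in the vehicle group, and its fold change of 1.42 was the smallest of the 7 (log2 0.51 ± 0.09, SE). Ugt2b35 (87000860 to 87013275), the member on the plus strand, stood at 162, 191.5 and 176 CPM with atractylodin, against 61.9, 91.5 and 64.9 CPM with vehicle. Vehicle 2 was the highest of its group, and the lowest treated library was still 1.77-fold above it. The fold change of Ugt2b35 was 2.38 (log2 1.25 ± 0.14, SE), the largest among the 5 members above 10 CPM.

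The remaining pair was at a far lower level than the other 5 members. Ugt2b37 (87240493 to 87254804) stood at 6.78, 8.04 and 8.77 CPM with atractylodin, against 4.845, 5.32 and 4.77 CPM with vehicle, the vehicle 1 value resting on 9 counts. The groups did not overlap, but with a fold change of 1.57 (log2 0.65 ± 0.25, SE) the row was not called. Ugt2b38 (87409942 to 87424203) had 29, 40 and 56 counts in the atractylodin libraries (2.89, 4.18 and 4.68 CPM), against 0, 19 and 16 counts in the vehicle libraries (0, 1.63 and 1.29 CPM). It stood above the filter's level of 0.94 CPM in 3 atractylodin and 2 vehicle libraries. The 0 in vehicle 1 allows up to 1.61 CPM, so at that depth it is not distinguishable from vehicle 3. The level of vehicle 2 lay just above that limit.

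The fitted log2 fold change of Ugt2b38 was 1.61 ± 0.46 (SE), and the ratio of group means was 4.01. Its call was lost without any 1 of atractylodin 2, atractylodin 3 or the 3 vehicle libraries, with log2 values of 1.42 to 1.91 when 1 library was left out. Both genes resemble Ugt2b5 closely. Ugt2b37 had 0.983% to 1.18% of the counts of Ugt2b5 in the atractylodin libraries, against 1.19% to 1.51% in the vehicle libraries. Ugt2b38 had 0.469% to 0.631% of them in the atractylodin libraries, against 0% to 0.363% in the vehicle libraries. Whether some of these counts are reads of Ugt2b5 was not tested.

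The order of levels was nearly the same in both groups. With atractylodin it ran Ugt2b5, Ugt2b36, Ugt2b34, Ugt2b1, Ugt2b35, Ugt2b37 and Ugt2b38, and with vehicle Ugt2b36 stood first and Ugt2b5 second. The CPM ranges of the top 3 genes overlapped between neighbours in the order, in both groups, while within libraries each gene was above the next in 3 of 3 of its group. Some of these orders were near ties, within counting error. In vehicle 2, Ugt2b36 and Ugt2b5 had 5244 and 5231 counts, and in vehicle 1, Ugt2b5 and Ugt2b34 had 595 and 573. From Ugt2b34 downward no ranges of neighbours overlapped.

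Some members also took a different share of the family sum. Ugt2b5 made up 30.5% to 32.6% of the family sum with atractylodin and 25.3% to 30.0% with vehicle, and Ugt2b35 made up 7.31% to 8.02% with atractylodin and 4.67% to 6.11% with vehicle. Ugt2b36 made up 25.0% to 28.1% with atractylodin and 30.1% to 30.6% with vehicle. Ugt2b38 made up 0.143% to 0.194% with atractylodin and 0% to 0.109% with vehicle. For these 4 members the groups did not overlap. The shares of Ugt2b34, Ugt2b1 and Ugt2b37 overlapped between groups, at means of 22.1%, 11.8% and 0.34% with atractylodin and 22.8%, 13.8% and 0.36% with vehicle. Shares within the family do not depend on how libraries are scaled.

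**Figure D3:**
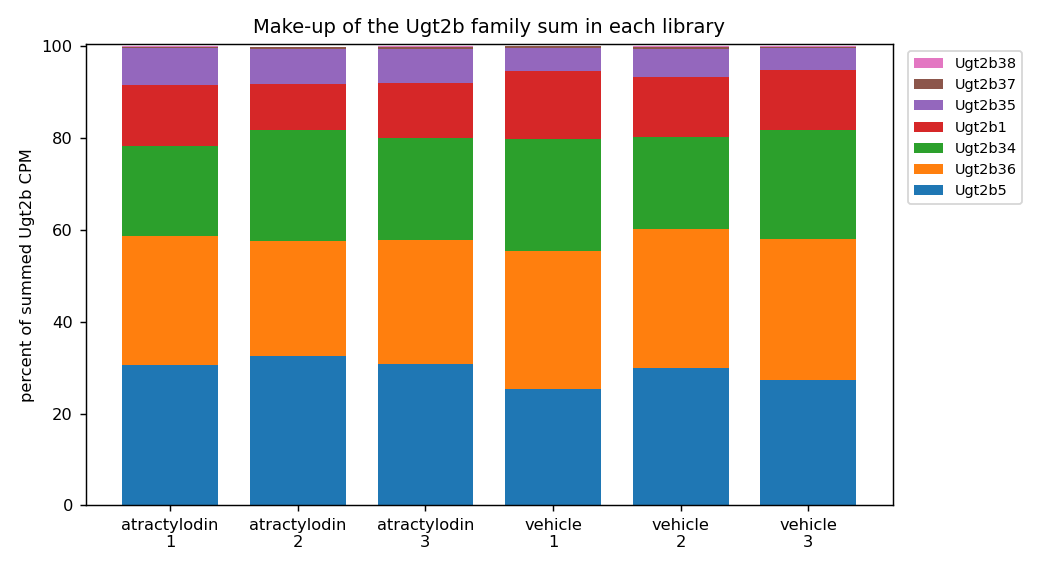
Percent of the summed Ugt2b CPM taken by each member in each library, stacked, with the 3 atractylodin libraries on the left and the 3 vehicle libraries on the right. The Ugt2b35 segment is 7.31% to 8.02% with atractylodin and 4.67% to 6.11% with vehicle.

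Within 500 kb of the cluster, 21 rows of the files belong to genes outside the family, of which 5 were tested, and this window was chosen after the data had been seen. Ugt2a3 (87324972 to 87337195), which has Ugt2b37 and Ugt2b38 on its sides, stood at 177, 179 and 189 CPM with atractylodin, against 185, 213 and 216 CPM with vehicle. Its groups overlapped and it was not called (log2 fold change -0.18 ± 0.09, SE, edgeR adjusted p = 0.272), and the difference between it and the members was not tested. Ythdc1, which encodes a nuclear reader of m6A-modified RNA and is the nearest tested gene before Ugt2b34, was higher, at 72.1 ± 2.71 CPM with atractylodin and 51.9 ± 3.57 CPM with vehicle (SD, n = 3, edgeR adjusted p = 0.00876), a call lost without vehicle 3 (log2 0.42). Past Ugt2b38, the sulfotransferase genes Sult1b1 (27.7 ± 7.24 CPM with atractylodin, 40.3 ± 4.67 CPM with vehicle) and Sult1d1 (143 ± 19.7 CPM with atractylodin, 115 ± 5.21 CPM with vehicle) were not called, at edgeR adjusted p of 0.0829 and 0.0807, and neither was the low row Gm7337. Sult1b1 was called lower without atractylodin 2 and Sult1d1 higher without atractylodin 1.

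**Figure D4:**
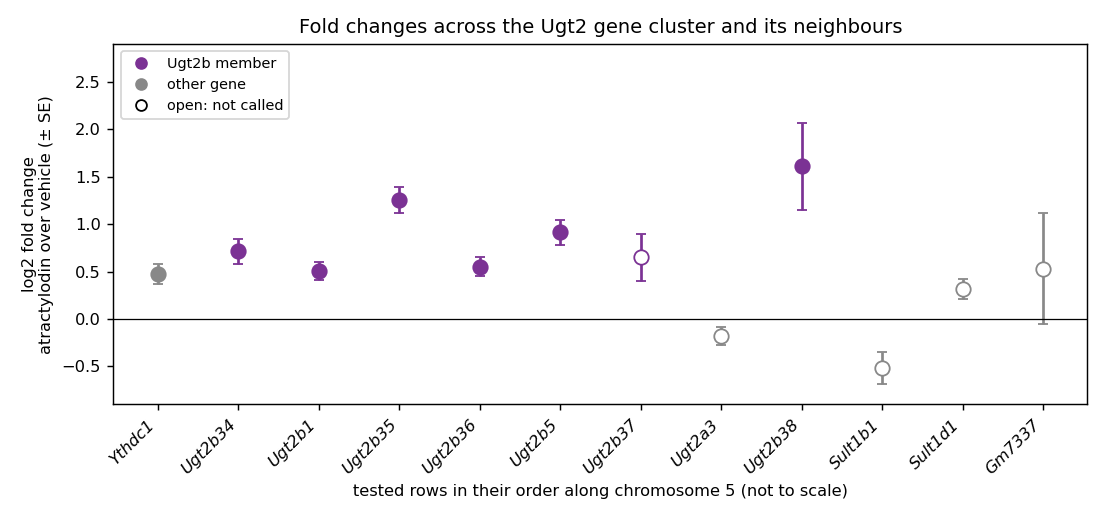
Log2 fold change of atractylodin over vehicle with its SE for the tested rows in and around the cluster, in their order along chromosome 5 and not to scale. Purple marks Ugt2b members, grey other genes, and open symbols rows not called. The 7 members run from 0.51 to 1.61, and Ugt2a3 lies at -0.18 between Ugt2b37 and Ugt2b38.

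Among other UDP-glycosyltransferases, 7 of 15 listed genes were tested and edgeR called none of them. An unadjusted p below 0.05 was seen for 2, and both DESeq2 and limma-voom made 0 calls. Of all tested rows 7.25% were called in either direction by edgeR, so a list of 7 without a call is near that share. The difference between this list and the Ugt2b members was not tested. Ugt1a1, Ugt1a5 and Ugt1a10 had only 5, 11 and 8 counts in vehicle 1. Ugt1a6b carried nearly all counts of the Ugt1a locus, at 1694, 1714 and 1648 CPM with atractylodin, against 1321, 1502 and 1353 CPM with vehicle. The groups were apart by a factor of 1.10, and the row was not called (1.21-fold, edgeR adjusted p = 0.0872). Since Ugt1a genes share their last exons, this row may hold 3' reads of all of them, and Ugt1a2, Ugt1a7c and Ugt1a9 were listed at 0 in every library. Ugt1a10 averaged 5.04 ± 1.29 CPM with atractylodin and 2.86 ± 1.42 CPM with vehicle (SD, n = 3) and was not called (edgeR adjusted p = 0.121). Ugt2a1 and Ugt2a2, which also share exons, had the same count as each other in every library, from 0 to 4.

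Some genes around the sugar donor were higher. Of 8 tested genes listed under UDP-glucuronic acid supply, 3 rose and none fell, with a median log2 fold change of 0.22 over the 8. The list is broad, and Entpd5, 1 of the 3, acts on UDP and does not make or carry the donor. Over all tested rows, 3.92% were called higher and 3.33% lower. All gene lists were chosen with earlier results of these data known, so such counts are a description. Ugdh, the dehydrogenase that makes UDP-glucuronic acid from UDP-glucose, stood at 155, 224 and 199 CPM with atractylodin, against 102, 119 and 108 CPM with vehicle. Its groups did not overlap, and it rose 1.75-fold (log2 0.81 ± 0.12, SE, edgeR adjusted p = 0.00111). Slc35d1, which carries UDP-glucuronic acid into the endoplasmic reticulum, rose 1.38-fold, to 150.4 ± 12.9 CPM with atractylodin, against 110 ± 7.20 CPM with vehicle (SD, n = 3, edgeR adjusted p = 0.00695). Entpd5, an enzyme of that compartment that hydrolyses UDP, rose 1.49-fold, to 241 ± 27.1 CPM with atractylodin, against 161 ± 21.3 CPM with vehicle (SD, n = 3, edgeR adjusted p = 0.00391).

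Genes acting before Ugdh were not called. Ugp2, which makes UDP-glucose, averaged 190.3 ± 4.50 CPM with atractylodin and 204 ± 29.9 CPM with vehicle (SD, n = 3, edgeR adjusted p = 0.631), and Pgm2 averaged 218 ± 11.3 CPM with atractylodin and 222 ± 10.6 CPM with vehicle (edgeR adjusted p = 0.897). Slc35d2, another carrier of nucleotide sugars, had a log2 fold change of -0.16 ± 0.14 (SE) and was not called. Ugp2, Pgm2 and Slc35d2 were named after their values had been seen. The 3 calls of this list were made in each of the 6 fits that left out 1 library.

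Of 10 tested genes of glucuronide transport and cleavage, none was called by edgeR, 7 had an unadjusted p under 0.05, and DESeq2 and limma-voom called 1 each. The median log2 fold change over the 10 was 0.24. By edgeR, 3.92% of all tested rows were called higher and 3.33% lower. The share of all rows with an unadjusted p under 0.05 is not given here, so the 7 are not read further. Slco1a1, an organic anion uptake carrier, stood at 139, 210 and 125.5 CPM with atractylodin, against 92.0, 67.6 and 63.3 CPM with vehicle. The groups did not overlap, and the treated ones spread widely (edgeR adjusted p = 0.0631). It passed without atractylodin 2, without atractylodin 3 and without vehicle 1, with log2 fold changes of 0.88 to 1.28 over the 6 fits that left out 1 library. Slco2b1, a related carrier, averaged 106 ± 4.51 CPM with atractylodin and 128 ± 5.62 CPM with vehicle (SD, n = 3, edgeR adjusted p = 0.0833), and was called lower under scaling by total counts. The export pump gene Abcc2, which passes glucuronides into bile, averaged 543 ± 60.1 CPM with atractylodin and 452 ± 21.7 CPM with vehicle (edgeR adjusted p = 0.125), and Gusb, encoding the lysosomal beta-glucuronidase, averaged 18.1 ± 5.20 CPM with atractylodin and 16.0 ± 4.36 CPM with vehicle (edgeR adjusted p = 0.799). Abcc2 and Gusb were named after their values had been seen.

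**Figure D5:**
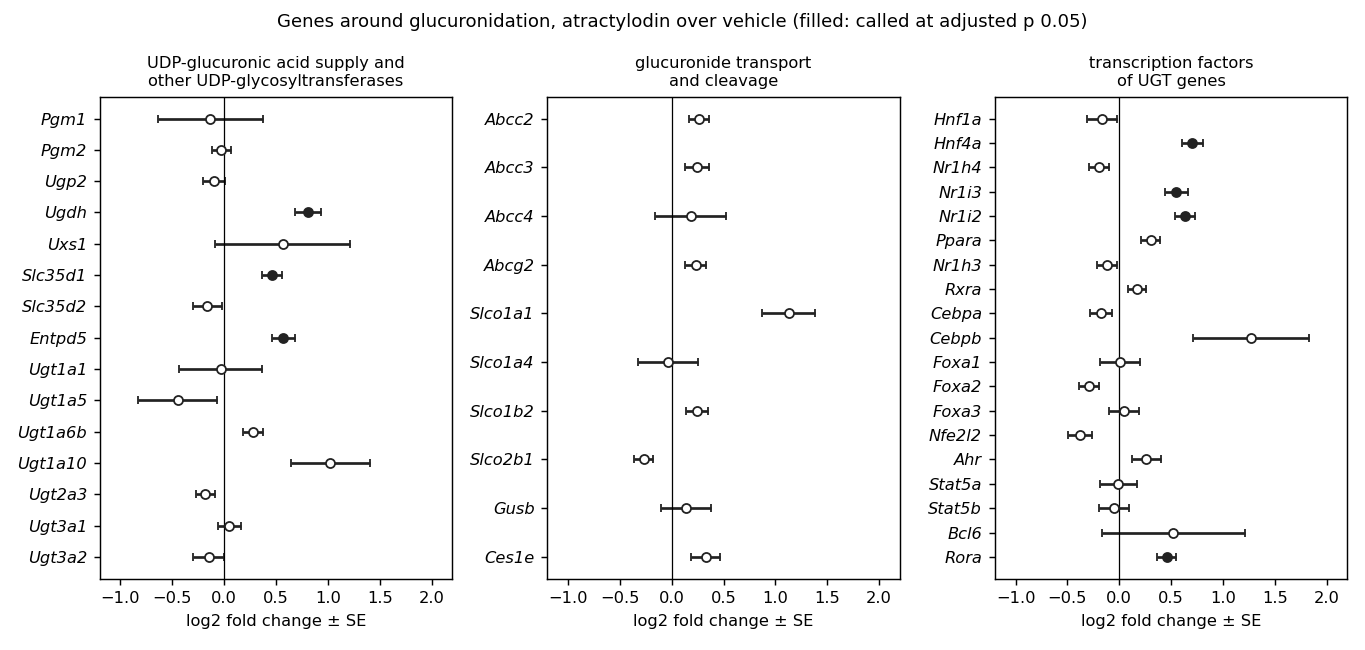
Log2 fold change of atractylodin over vehicle with its SE for tested genes around glucuronidation, in 3 panels, with filled symbols for rows called at an adjusted p of 0.05. Ugdh, Slc35d1 and Entpd5 in the left panel and Hnf4a, Nr1i3, Nr1i2 and Rora in the right panel are filled and lie to the right of 0.

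Of 19 tested transcription factors known to act on glucuronosyltransferase genes, 4 rose and none fell (2 fell under scaling by total counts and 1 without vehicle 1), and the median log2 fold change was 0.05. The shares of all tested rows were 3.92% higher and 3.33% lower. Hnf4a, a nuclear receptor central to hepatocyte identity, stood at 462, 439 and 533 CPM with atractylodin, against 321, 270.2 and 291 CPM with vehicle. It rose 1.63-fold (log2 0.71 ± 0.10, SE, edgeR adjusted p = 0.000405), with no overlap of groups. Nr1i2, encoding the xenobiotic receptor PXR, rose 1.55-fold (118 ± 5.47 CPM with atractylodin, 76.0 ± 3.86 CPM with vehicle, SD, n = 3, edgeR adjusted p = 0.000568). Nr1i3, encoding the xenobiotic receptor CAR, rose 1.46-fold (edgeR adjusted p = 0.00449) and Rora, an orphan receptor gene, 1.37-fold (edgeR adjusted p = 0.00454).

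Of the 12 tested genes listed as reporting on xenobiotic and lipid receptors, 4 rose and 1 fell (3 and 1 without vehicle 1). The list also holds Gclc, Nqo1 and Gstm3, targets of the transcription factor NRF2 rather than of such a receptor. Of these, Nqo1 and Gstm3 were not called (log2 0.41 ± 0.26 and -0.92 ± 0.64, SE). Beside the counts of this list stand 3.92% of all tested rows called higher and 3.33% called lower. Por, the electron donor of cytochrome P450 enzymes, rose 2.14-fold, and Gclc, of glutathione synthesis, rose 1.69-fold (edgeR adjusted p = 2.59e-05 and 0.000226). Cyp4a14, a fatty acid hydroxylase gene, rose 1.77-fold (edgeR adjusted p = 0.00454), a call lost without vehicle 2 (log2 0.79). Cyp3a11, a target of PXR, fell to 132 ± 4.55 CPM with atractylodin, against 377 ± 102 CPM with vehicle (SD, n = 3, edgeR adjusted p = 0.0032), in the direction opposite to the Ugt2b members. Cyp2b10, a target of CAR, stood at 22.0, 18.7 and 53.8 CPM with atractylodin, against 6.998, 3.69 and 5.82 CPM with vehicle, and was not called (edgeR adjusted p = 0.0871). DESeq2 and limma-voom called it, as did the fit without atractylodin 3. Cyp2b10 and Cyp1a2 were named after their values had been seen. The remaining call was Cyp1a2, another cytochrome P450 gene, at 287 ± 45.6 CPM with atractylodin and 179 ± 36.7 CPM with vehicle (SD, n = 3, edgeR adjusted p = 0.0356). This call was lost under total counts and without any 1 of atractylodin 2, atractylodin 3, vehicle 1 or vehicle 3, at log2 values of 0.58 to 0.62.

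Rows outside the family were ranked by how closely they followed it over the 6 libraries. The measure was the root mean square difference of log2(CPM + 1), centred per row, over 7243 rows of at least 10 CPM on average. It includes the difference between groups, so rows with a similar fold change come near, and closeness does not show variation together within groups. The family sum was most like Paics, an enzyme gene of purine synthesis, Ugdh and Pi4k2b, a phosphatidylinositol kinase gene, at 0.0572, 0.0709 and 0.079. Their log2 fold changes were 0.65, 0.81 and 0.69, against 0.74 for the sum. Ugdh was also second for Ugt2b5 (0.105), after Mup12 (0.0887) and before Glt1d1 (0.116). The nearest rows to Ugt2b35 were Rapgef4 (0.101), Mup7 (0.115) and Mup11 (0.118), where the Mup genes are near-identical paralogs that encode major urinary proteins, so the share of each is uncertain. Ugt2b1 was nearest to Ints8, Cdc34 and Upf2 (0.0267 to 0.0359), and Ugt2b36 to Wdr36, Scpep1 and Ppfibp2 (0.0332 to 0.0478). Ugt2b37 was nearest to Ppfibp2, Tsr1 and Paics (0.0258 to 0.0596), and Ugt2b34 to Rheb, Aox1 and A330023F24Rik (0.0781 to 0.103). The nearest rows to Ugt2b38, 3110043O21Rik, Fgf21 and Pck1, were farther off, at 0.243 to 0.328.

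Markers of other cells and of liver zones were measured beside the family. Fewer cells of a type and less RNA per cell cannot be told apart in bulk liver. For the counts of markers called, the shares of all tested rows were 3.92% higher and 3.33% lower. None of 6 hepatocyte markers was called by edgeR (1 at an unadjusted p under 0.05, 0 by DESeq2 and limma-voom), and their summed level was 70900 to 78890 CPM with atractylodin and 75810 to 82870 CPM with vehicle. Alb, the most abundant, averaged 52150 ± 4170 CPM with atractylodin and 54160 ± 1488 CPM with vehicle (SD, n = 3). Of 3 tested cholangiocyte markers 2 fell, Sox9 and Spp1 (edgeR adjusted p = 0.00434 and 0.00288). The other tested marker, Epcam, was not called (log2 0.05 ± 0.55, SE). All 5 markers summed to 21.7 to 27.1 CPM with atractylodin and 41.5 to 51.7 CPM with vehicle. Most of that sum was Sox9 (means of 14.3 CPM with atractylodin and 28.3 with vehicle) and Spp1 (6.68 and 14.9 CPM). Pericentral markers summed to 8225 to 9554 CPM with atractylodin and 8026 to 8356 CPM with vehicle (Slc1a2 higher and Lgr5 lower of 5, the first call lost without any 1 library but atractylodin 2 and the second without atractylodin 2 or vehicle 3), and periportal markers to 1244 to 1482 CPM with atractylodin and 1390 to 1584 CPM with vehicle (Hal lower of 5, edgeR adjusted p = 0.00278). Macrophage markers summed to 161 to 254 CPM with atractylodin and 194 to 284 CPM with vehicle. Stellate cell markers summed to 264 to 368 CPM with atractylodin and 325 to 395 CPM with vehicle, and endothelial markers to 227 to 255 CPM with atractylodin and 239 to 252 CPM with vehicle, so all 3 sums overlapped. None of the macrophage or stellate cell markers was called by edgeR, DESeq2 or limma-voom (1 and 0 at an unadjusted p under 0.05), while Lyve1 was higher and Stab2 lower among 5 endothelial markers. The Lyve1 call was lost without any 1 library but atractylodin 2, and the Stab2 call without any 1 library but atractylodin 1.

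None of the 4 pancreatic markers passed the filter with all 6 libraries. They summed to 0.627 to 8.17 CPM with atractylodin and 0 to 0.429 CPM with vehicle, with Cel at 0 in all but 1 library, and all 4 at 0 in vehicle 1. Cela2a, an elastase gene, had 58, 6 and 23 counts in the atractylodin libraries, against 0, 1 and 0 counts in the vehicle libraries, so its groups did not overlap. It was called higher by edgeR with no filter, without vehicle 1 and without atractylodin 2 (adjusted p = 3.96e-08, 0.0487 and 0.000749), and not without vehicle 2 or vehicle 3. Atractylodin 1, which held the most of them, had the lowest family sum of its group. The part of any of these markers in the Ugt2b values was not tested.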

How the data were processed

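Liver RNA extracted with Trizol was turned into QuantSeq 3' libraries from 500 ng each, per the labels' protocols. As deposited, each file gives 1 raw count for every gene symbol, not normalized. Bowtie2, bedtools and build mm10 are named in the submitters' processing notes, without versions or roles. The annotation, the strand setting, the handling of reads that match several genes and any use of molecular identifiers are not given in the sources used here, so counting limits cover counting error only.

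Sample titles gave the group and number of each library. No pair of libraries agreed within sampling noise (chi-square per degree of freedom of at least 2.75). Rows were filtered with filterByExpr, scaled by TMM and tested by the robust quasi-likelihood F-test of edgeR 4.0.16 under R 4.3.3, with Benjamini-Hochberg adjustment over 12505 rows at 0.05. Each SE was obtained as the absolute log2 fold change over the root of its F statistic. The test was tried on simulated counts, where it missed many changes, most of the smaller ones, and made false calls above the nominal rate, so a row not called may still differ. Alternatives used DESeq2 1.42.0, limma 3.58.1, other scalings and filters, a replicate block and the omission of each library. Sequences were aligned with Biopython 1.88 from GENCODE M21 transcripts (longest coding sequence per gene) and RefSeq promoters on GRCm38, the build also called mm10. All 7 members matched both. Figures were drawn with matplotlib 3.10.9.

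The members and all gene lists were chosen with earlier results of these data known. Named genes were the 7 members, up to 4 called genes of each pathway list by smallest p (2 in a list with none), and the 3 rows nearest to the family sum and to each member, with neighbours of the cluster and other genes marked as named later. Marker lists are given mainly as sums and counts. No batch or date is in the labels, so no split by batch was made.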

Additional observations from a re-analysis of the deposited data

How the results depend on the processing

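The family sum stayed between 0.65 and 0.74 on the log2 scale under the 4 other scalings and between 0.68 and 0.83 when 1 library was left out. Between 5 and 6 of the 7 members were called under the 15 alternatives, and Ugt2b1, Ugt2b5, Ugt2b34, Ugt2b35 and Ugt2b36 were called under each. Ugt2b38 was not called by limma-voom (log2 1.76) or in 5 of 6 fits without 1 library (1.42 to 1.91), and the cause was not tested. The count of called rows was 467 to 751 when 1 library was left out, with 494 without vehicle 1 and 467 without vehicle 3. Among other glycosyltransferases, 1 gene was called with no filter. Of the transport list, 2 genes were called with no filter, 1 with total counts (lower), with a mean CPM of at least 5, with DESeq2, with limma-voom and with the replicate block, and 0 to 1 without 1 library. Same-numbered libraries did not deviate together (correlations of -0.027, -0.089 and 0.022 for numbers 1, 2 and 3). No pairing by number was seen, though 3 libraries per group cannot exclude one. The replicate block gave 811 called rows and 6 members. Of genes not called, Ugp2, Pgm2, Gusb and Alb changed sign when 1 library was left out (log2 -0.21 to 0.0215, -0.0613 to 0.0127, -0.0388 to 0.43 and -0.11 to 0.0071). A level under 1.61 CPM is not distinguishable from 0 in vehicle 1.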
